A study of Homo sapiens with 8 samples.

Results

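The genes of the MYC, MAX and MXD network were compared between BT549 cells growing on plastic and BT549 cells held in suspension. BT549 is an established human cell line from a triple-negative breast cancer. The network was taken as 10 genes chosen by symbol: MYC, MYCN, MAX, MLX, MGA, MXD1, MXD3, MXD4, MXI1 and MNT. All 10 were found, each by 1 probe set with a single gene symbol, among 18417 genes tested. The attached group was 4 cultures on ordinary culture plates and the suspended group 4 cultures on plates coated with poly-HEMA, to which cells cannot stick. Both groups were the same line in RPMI with 10% serum and insulin, with no other agent or genetic change named. Suspension lasted 24 h. For attached cells the labels disagree, giving 24 h in one place and 48 h in another, and if the longer time holds, time in culture and attachment cannot be told apart. The design text calls the 4 samples of a group biological replicates, and p-values speak to cultures of this 1 line.

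MYC is a transcription factor that binds DNA only when paired with MAX, and it is known for raising genes of ribosome assembly, nucleotide synthesis and cell division. MAX also pairs with the MXD proteins (MXD1, MXD3, MXD4 and MXI1), with MNT and with MGA, and these pairs hold the same genes down by recruiting corepressors. MLX is a related partner that pairs with some of the MXD proteins and MNT, and with the glucose-responsive factors MLXIP and MLXIPL. The pairs share a DNA site, the E-box CACGTG, so the balance between activating and repressing partners is the feature for which the network is best known.

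The E-box was looked for in promoter windows to show where the network could bind next to its own genes and to growth genes. Windows of 300 bases, 250 before to 50 after each start site, came from RefSeq (GRCh38.p14) and were available for 9 of the 10 members, all but MYC. The letters searched were CACGTG, which reads the same on both strands. They occurred in 7.26% of all 35116 windows and in 8.88% of the windows of 14239 tested genes, counting the first window listed for each gene. Among the members 3 of 9 held it, namely MNT, MXD4 and MLX, 1 site each. MXD1 and MXI1 held none in 1 and 3 windows. These sites are printed 5′ to 3′ on the strand of the gene, with the E-box in capitals.
MNT, chr17:2401228-2401273, minus strand, 187 bases before the start: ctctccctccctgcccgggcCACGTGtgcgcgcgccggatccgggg
MXD4, chr4:2262322-2262359, minus strand, 232 bases before the start: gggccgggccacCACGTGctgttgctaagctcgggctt
MLX, chr17:42567030-42567075, plus strand, 44 bases before the start: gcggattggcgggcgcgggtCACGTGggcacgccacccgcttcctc

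The data are log2 array signals over 33297 probe sets, with array medians of 6.02 to 6.07. Arrays have no read depth, and 4 against 4 limits the precision. Pearson's r across probe sets was 0.995 to 0.996 for pairs of attached arrays, 0.993 to 0.996 for suspended pairs and 0.987 to 0.994 for pairs from different groups. The line's mesenchymal genes were all measured, and most differed between the groups. VIM read 11.7 in both and did not pass (−0.06), CDH2 fell by 0.38 from 8.94 (limma adjusted p = 0.000104), and SNAI2 and ZEB1 rose by 1.23 and 0.27 (adjusted p = 2.76e-08 and 0.00240). GATA3, a luminal factor, rose by 0.49 (adjusted p = 2.05e-05). The epithelial CDH1 and the receptor genes ESR1 and PGR had attached means of 4.19, 5.04 and 4.19, below 5.28, the 25th percentile of gene means. EPCAM, also epithelial, lay just above it at 5.47 and the receptor gene ERBB2 at 7.48, and these 5 genes did not pass the test. The part of these marker differences in the results on the network was not tested. Among 6 leukocyte and endothelial markers CD14 was higher (0.22, limma adjusted p = 0.0467) and 0 were lower, also at unadjusted p, but the CD14 call was lost under 12 of 15 alternatives (adjusted p = 0.0233 to 0.110). The mean log2 level of these 6 was 4.82 to 4.90 on attached and 4.86 to 5.01 on suspended arrays, and their part in any result was not tested either. None of the 10 network genes had a mean signal below the 25th percentile.

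MYC was lower in suspended cells, and of the 6 repressors that pair with MAX 3, namely MXD1, MXI1 and MNT, were higher. MXD3 (0.13), MXD4 (0.18) and MGA (−0.10), the other repressors, and MAX itself (−0.04) did not pass the test. A gene was called when limma's p-value, adjusted over all 18417 genes by the Benjamini-Hochberg method, was under 0.05. By that rule 4 of the 10 genes were called, against 20.6% of all genes. Those called higher were 3 of 10, against 10.4% of all genes, and the 1 called lower compares with 10.2%. The 4 attached and 4 suspended values did not overlap for 4 of the 10, against 24.8% of all genes. The median log2 difference of the 10, suspended minus attached, was 0.13, against 0.02 over all genes. As deposited, 50.4% of all calls were higher in suspension, and 35.2% were after each array was centred on the median of the tested genes.

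**Figure D1:**
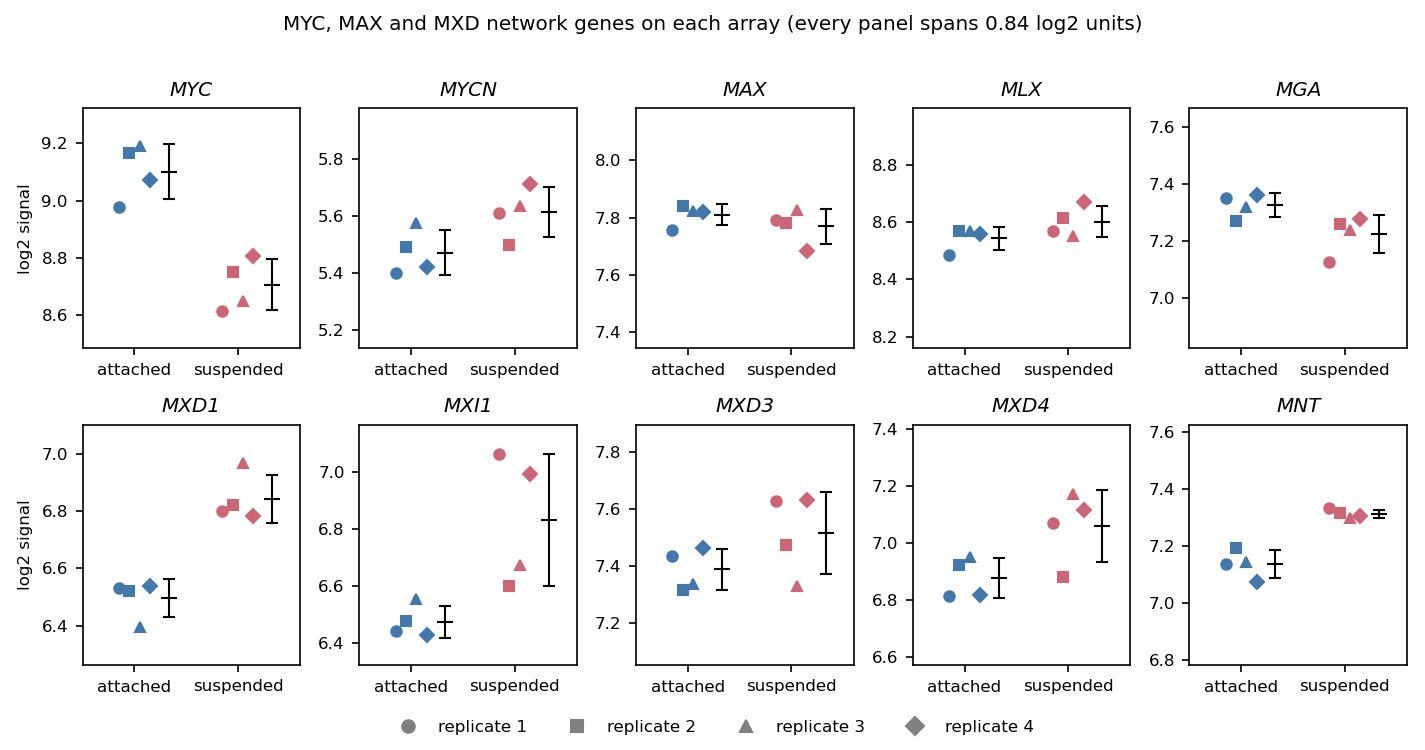
Log2 signal (y axis) of each of the 10 network genes on the 4 attached (blue) and 4 suspended (red) arrays, with the replicate shown by the symbol and the group mean ± SD in black. MYC values fall from 8.98 to 9.19 in attached cells to 8.61 to 8.81 in suspended cells, MXD1, MXI1 and MNT lie wholly above their attached values, and the groups overlap for the other 6 genes.

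MYC, the activating partner, had log2 signals of 8.98, 9.17, 9.19 and 9.07 on attached replicates 1 to 4 and of 8.61, 8.75, 8.65 and 8.81 on suspended replicates 1 to 4. Every suspended value lay below every attached value, with a gap of 0.17 between the nearest. Means were 9.10 ± 0.10 attached and 8.71 ± 0.09 suspended (SD, n = 4 per group). MYC signal fell by 0.40 on the log2 scale (SE 0.063, limma adjusted p = 0.000916), which is 1.32-fold lower, and 4.91% of all genes had a larger difference in either direction. MYCN, the MYC paralogue known from neuroblastoma, read 5.40 to 5.58 attached and 5.50 to 5.71 suspended. Its groups overlapped, and its difference of 0.14 did not pass the test (adjusted p = 0.119, 95% interval 0.01 to 0.27). MYCL, the third MYC paralogue, did not pass either (0.03, adjusted p = 0.766).

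MAX, on which both the activating and the repressing pairs depend, had signals of 7.76, 7.84, 7.82 and 7.82 attached and 7.79, 7.78, 7.83 and 7.68 suspended. The groups overlapped throughout. The log2 difference was −0.04 (SE 0.048, adjusted p = 0.610), with a 95% interval of −0.15 to 0.07. A change as large as that of MYC or MXD1 lies outside that interval. The difference of each called gene was also taken within arrays, as its log2 ratio to MAX. That ratio differed by −0.36 for MYC, 0.39 for MXD1, 0.40 for MXI1 and 0.22 for MNT. For each of these 4 the groups did not overlap and the two-sided exact permutation p was 0.0286, the smallest that 70 splits of 4 against 4 can give. All 9 ratios to MAX were tested, and the exact permutation p of these 4, adjusted over the 9 by Benjamini-Hochberg, was 0.0643, above the threshold of 0.05. These tests were added after the calls were known. The 4 genes already had groups without overlap and MAX hardly differed, so the ratios add no support to the calls.

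MXD1, a repressor that typically appears as cells leave the cycle and differentiate, read 6.53, 6.52, 6.40 and 6.54 on attached and 6.80, 6.82, 6.97 and 6.78 on suspended arrays. The lowest suspended value exceeded the highest attached value by 0.24. Its signal rose by 0.35 on the log2 scale (SE 0.056, limma adjusted p = 0.00107), or 1.27-fold. Replicate 3 held both the lowest attached and the highest suspended value.

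MXI1, the repressor also called MXD2, read 6.44, 6.48, 6.55 and 6.43 attached and 7.06, 6.60, 6.67 and 6.99 suspended. All suspended values were higher, but suspended replicates 1 and 4 lay well above replicates 2 and 3, and the nearest values of the groups were 0.05 apart. The suspended SD was 0.23 against 0.06 attached. The log2 difference was 0.36 (SE 0.095, adjusted p = 0.0208), or 1.28-fold. Leaving out attached replicate 1 or 4 or suspended replicate 1 or 4 ended the call (log2 0.34, 0.34, 0.28 and 0.30; adjusted p = 0.0547 to 0.0594, within a range of 0.00555 to 0.0594 over all alternatives).

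MNT, which represses together with MAX in dividing as well as resting cells, read 7.14, 7.19, 7.14 and 7.07 attached and 7.33, 7.32, 7.30 and 7.30 suspended. The suspended arrays were close to each other (SD 0.01) and all above the attached ones. The rise of 0.18 (SE 0.044, limma adjusted p = 0.0151) was the smallest of the 4 called changes at 1.13-fold, and 23.7% of all genes had a larger difference. The call was lost without attached replicate 4 (0.16, adjusted p = 0.0540) and when arrays were centred on the median of the tested genes (0.13, adjusted p = 0.0715), where over all alternatives adjusted p ran from 0.00889 to 0.0715.

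MXD3 and MXD4, the remaining MXD repressors, had positive differences that did not pass the test. MXD4 was at 6.82 to 6.95 attached and 6.88 to 7.17 suspended, a difference of 0.18 (SE 0.066, adjusted p = 0.0763, 95% interval 0.04 to 0.33). Its suspended replicate 2, at 6.88, lay within the attached range while the other suspended values lay above it. Without that array MXD4 was called (0.24, adjusted p = 0.0124, the lowest of its alternatives, which reached 0.178). MXD3, which is known to peak in dividing cells, read 7.44, 7.31, 7.34 and 7.46 attached and 7.63, 7.47, 7.33 and 7.63 suspended. Its difference of 0.13 had a 95% interval of −0.03 to 0.28 (adjusted p = 0.249). For MXD3, as for MXI1, suspended replicates 1 and 4 were the highest of the group. In bulk RNA a higher signal in every cell and a larger share of cells with the transcript cannot be told apart.

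**Figure D2:**
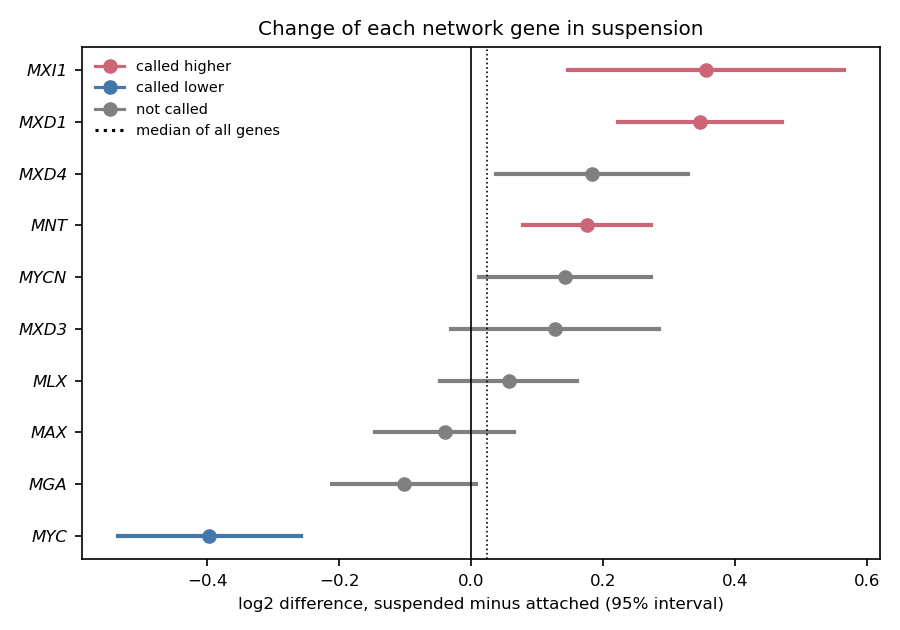
Log2 difference (x axis, suspended minus attached) of each network gene with its 95% interval from limma, coloured by call; the dotted line marks the median of all genes, 0.02. MYC is the only gene called lower, at −0.40, and MXD1 and MXI1 lie at 0.35 and 0.36 with the wider interval for MXI1.

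MGA, the largest MAX partner and the DNA-binding scaffold of the Polycomb complex PRC1.6, read 7.35, 7.27, 7.32 and 7.36 attached and 7.12, 7.26, 7.24 and 7.28 suspended. The groups overlapped, with suspended replicate 1 the lowest of all 8 arrays, and the difference of −0.10 (95% interval −0.21 to 0.01) did not pass the test (adjusted p = 0.186). MLX read 8.49 to 8.57 attached and 8.55 to 8.67 suspended, with a difference of 0.06 (95% interval −0.05 to 0.16, adjusted p = 0.442). Of the MLX partners, MLXIP, known as MondoA, differed by −0.21 (7.10 ± 0.13 attached, 6.89 ± 0.14 suspended, adjusted p = 0.0986). MLXIPL, known as ChREBP, was higher by 0.16 (5.30 ± 0.06 attached, 5.45 ± 0.02 suspended, adjusted p = 0.0330), but its call was lost under 11 of 15 alternatives (adjusted p = 0.0207 to 0.154).

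Most growth genes that MYC is known to raise were lower in suspended cells. Of 40 listed, 36 had a single-symbol probe set, and 22 of these were lower and 1 was higher (limma). That is 61.1% lower, against 10.2% of all genes, and 2.78% higher, against 10.4%. Their median log2 difference was −0.20, against 0.02 over all genes. RRS1, a factor for assembly of the large ribosomal subunit, read 9.61, 9.52, 9.54 and 9.57 attached and 8.98, 8.98, 9.14 and 8.92 suspended, and fell by 0.56 (SE 0.054, adjusted p = 2.82e-05). The nucleolar phosphoprotein gene NOLC1 fell by 0.47 (9.98 ± 0.04 to 9.51 ± 0.06, adjusted p = 4.13e-05). Averaged over the 36 genes, log2 signal relative to the attached mean was −0.02 to 0.02 on attached and −0.20 to −0.17 on suspended arrays, with no overlap. The list names known MYC responders, and many of these genes also respond to other growth signals. It was chosen with earlier results of these data known, so its shares are descriptions and not an independent readout.

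Within the growth genes, genes were divided by function after the values were seen, and calls are read against 10.2% of all genes lower and 10.4% higher. Of 12 genes for nucleolar function and ribosome assembly 11 were lower and 0 higher, with a median of −0.29. Besides RRS1 and NOLC1 these included the polymerase I subunit POLR1B (−0.42), BOP1 (−0.33), PES1 (−0.26) and the nucleolar protein genes NPM1 (−0.26) and NCL (−0.17). FBL, which encodes the snoRNA-guided methyltransferase fibrillarin, did not pass (−0.10, limma adjusted p = 0.124). Another NPM1 probe set gave −0.15 and did not pass (limma p adjusted over probe sets = 0.0646), while the remaining ones gave −0.29 and passed. Of 5 enzymes of purine, pyrimidine and serine metabolism 4 were lower, among them SHMT2 (−0.27) and GART (−0.21). Of 5 genes of sugar uptake and glycolysis the glucose transporter SLC2A1 was lower (−0.49) and the pyruvate kinase PKM higher, from 11.5 ± 0.02 to 12.0 ± 0.03 (0.51, adjusted p = 8.01e-06). LDHA, ENO1 and HK2 did not pass (0.03, −0.07 and −0.15). The spermidine synthase gene SRM, a polyamine enzyme, was also lower (−0.43, adjusted p = 0.000556), and ODC1, which acts before it and is a classic MYC target, did not pass (−0.06, adjusted p = 0.374). Both belong to the remaining 14 growth genes, of which 6 were lower and 0 higher, with a median of −0.10.

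**Figure D3:**
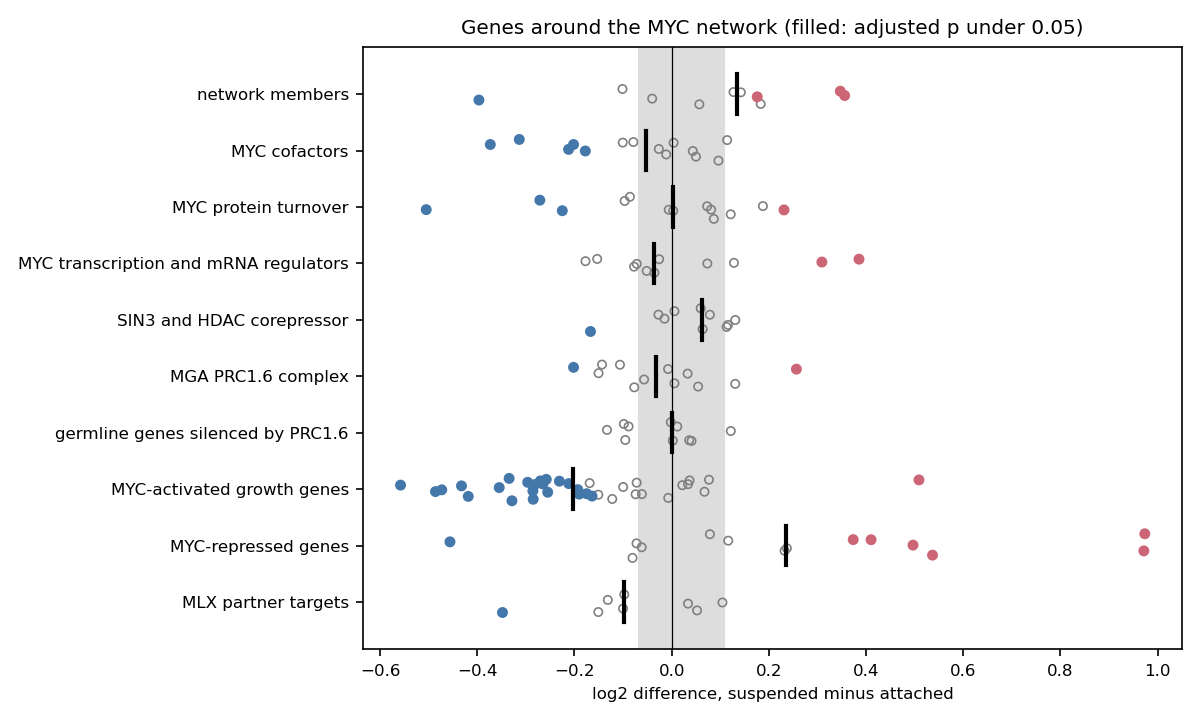
Log2 difference (x axis, suspended minus attached) of every gene in the network and in 9 lists around it, filled where adjusted p is under 0.05; black bars are list medians and the grey band holds the middle of all genes, from −0.07 to 0.11. Growth genes lie mostly to the left (median −0.20) and genes known to be held down by MYC mostly to the right (median 0.23).

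The E-box was also counted in the growth genes. Of 31 growth genes with a window 14 held CACGTG (45.2%, against 8.88%). They were 7 of the 18 genes called lower (38.9%) and 7 of the 13 not called lower (53.8%). Across the 1264 tested genes with the E-box the median log2 difference was 0.03, with 11.9% called lower and 14.0% higher. Across the 12975 without it the median was 0.02, with 10.4% lower and 10.7% higher. These shares are descriptions, and a match to these letters is not a bound site. The growth list names known MYC responders and MYC binds this site, so the 45.2% is not independent of how the list was chosen. Sites of SRM, SLC7A5 and HSPD1, which fell, and 1 of the 3 sites of CDK4, which did not pass the test (0.04, adjusted p = 0.619), are printed to set both cases side by side.
SRM, chr1:11060192-11060237, minus strand: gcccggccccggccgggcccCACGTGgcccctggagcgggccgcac
SLC7A5, chr16:87869612-87869657, minus strand: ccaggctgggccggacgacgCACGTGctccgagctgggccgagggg
HSPD1, chr2:197500337-197500382, minus strand: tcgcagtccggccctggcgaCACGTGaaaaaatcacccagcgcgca
CDK4, chr12:57752386-57752431, minus strand: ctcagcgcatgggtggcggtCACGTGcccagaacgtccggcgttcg

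Genes that MYC is known to hold down, a list also chosen with earlier results known, were higher more often than lower. Of 14 measured, 6 rose and 1 fell, or 42.9% and 7.14%, against 10.4% and 10.2% of all genes, with a median of 0.23. HBP1, a repressor of cell cycle genes, read 7.22, 7.07, 7.23 and 7.08 attached and 8.04, 8.20, 8.10 and 8.16 suspended, a rise of 0.97 (SE 0.057, limma adjusted p = 5.12e-07). The growth arrest gene GAS1 rose by 0.97 (7.90 ± 0.04 to 8.87 ± 0.16). The cyclin-dependent kinase inhibitor genes CDKN1B (0.54), CDKN2B (0.50) and CDKN1A (0.41) rose, and CDKN1C did not pass (0.24, adjusted p = 0.0714). NDRG1 was also higher (0.37). THBS1, the matrix protein thrombospondin 1, went the other way, from 10.4 ± 0.09 to 9.95 ± 0.05 (−0.46, adjusted p = 0.000133). GADD45A, GADD45B, NDRG2, PDGFRB, CEBPA and COL1A2 did not pass, with differences from −0.08 (COL1A2) to 0.23 (CEBPA).

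**Figure D4:**
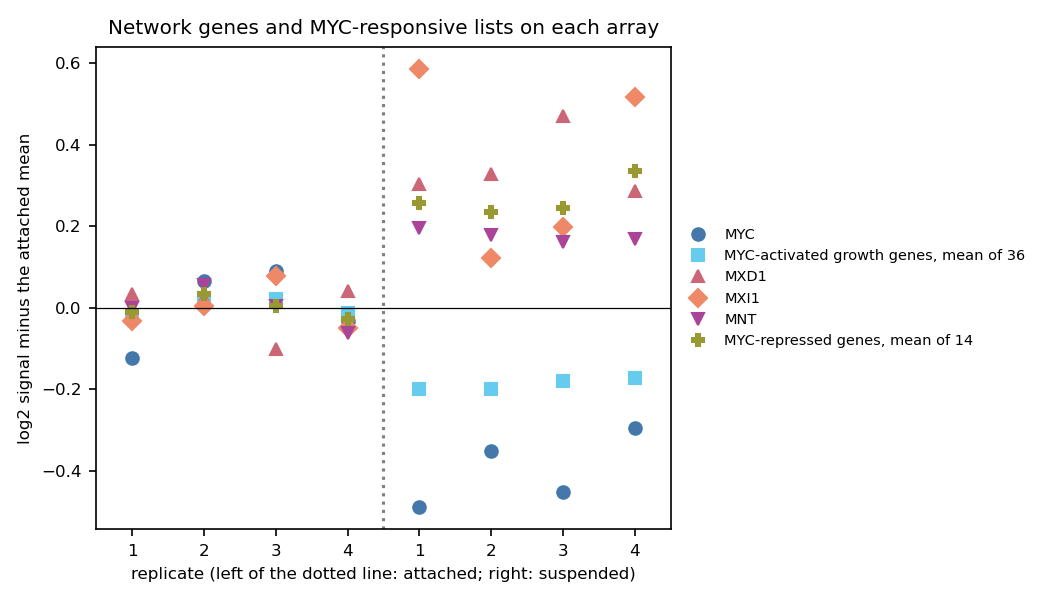
Log2 signal minus the attached mean (y axis) on each of the 8 arrays for MYC, MXD1, MXI1, MNT, the mean of 36 MYC-activated growth genes and the mean of 14 MYC-repressed genes. On suspended arrays the growth genes lie at −0.20 to −0.17 and MYC at −0.49 to −0.29, while MXI1 ranges from 0.12 to 0.59.

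Among genes for proteins that work with MYC on chromatin, 5 of 14 were lower and 0 higher (1 higher at unadjusted p), or 35.7% lower, against 10.2% of all genes lower and 10.4% higher. RUVBL1 and RUVBL2, the paired ATPases of the histone acetylation and chromatin remodelling complexes that MYC recruits, read 9.15 ± 0.05 and 8.57 ± 0.04 attached and fell by 0.37 and 0.31 (adjusted p = 0.000434 and 0.000929). The acetyltransferase KAT2A (−0.21, adjusted p = 0.0118), the histone-binding WDR5 (−0.20, adjusted p = 0.0275) and HCFC1 (−0.18, adjusted p = 0.0337) were the others. The WDR5 call was lost under 7 and the HCFC1 call under 8 of 15 alternatives (adjusted p = 0.00632 to 0.0732 and 0.00669 to 0.159), so the count of 5 went as low as 3. TRRAP, the large scaffold of the same complexes, and ZBTB17, which encodes the MYC partner MIZ1, did not pass (0.10 and 0.04).

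Of 13 genes that act on MYC protein stability 3 were lower and 1 higher, or 23.1% and 7.69%, against 10.2% and 10.4% of all genes. CIP2A, which shields MYC from dephosphorylation by protein phosphatase 2A, read 8.90, 8.82, 8.79 and 8.84 attached and 8.32, 8.34, 8.31 and 8.36 suspended, and fell by 0.50 (SE 0.045, limma adjusted p = 1.30e-05). SKP2, a ubiquitin ligase subunit for MYC, fell by 0.27 (adjusted p = 0.00138), and AURKA, a mitotic kinase that also stabilises MYCN, by 0.22 (adjusted p = 0.00720). GSK3B, the kinase that marks MYC for destruction, rose by 0.23 (adjusted p = 0.00368). FBXW7, the ligase subunit that reads this mark, differed by 0.19 and did not pass (adjusted p = 0.124). These are transcripts, and protein levels of MYC were not measured in these data.

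Of 11 genes that act on MYC transcription or its mRNA 2 rose (18.2%, against 10.4% of all genes) and 0 fell by limma (against 10.2%; 2 were lower at unadjusted p). TCF7L2, the Wnt pathway factor, rose by 0.39 (7.43 ± 0.09 to 7.82 ± 0.06, adjusted p = 0.000541) and STAT3 by 0.31 (adjusted p = 0.000386). FUBP1, which binds upstream of MYC, and CNBP differed by −0.15 and −0.18 and did not pass (adjusted p = 0.0524 and 0.0542), and over alternatives the number called lower in this list ran from 0 to 2.

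The corepressors through which MXD proteins and MNT act were called lower at a share near that of all genes. Of 10 genes of the SIN3 and HDAC complexes 1, BRMS1, was lower (−0.17, adjusted p = 0.0470, a call lost under 7 of 15 alternatives, adjusted p = 0.0220 to 0.137) and 0 were higher by limma (2 at unadjusted p), or 10.0% lower, against 10.2% of all genes lower and 10.4% higher. SIN3A and SIN3B, which the MXD proteins contact directly, differed by 0.06 and 0.12 and did not pass. Of 12 genes of the MGA complex PRC1.6, RING1 was higher (0.26, adjusted p = 0.00240; its second probe set gave 0.29) and WDR5 lower, each 8.33% of the list. PCGF6, the Polycomb subunit that defines this complex, did not pass (−0.11, adjusted p = 0.142), while its second probe set gave −0.18 (adjusted p = 0.0393). The number of lower members was unstable, with 0 after quantile normalization, with the replicate number as a block and when attached replicate 2, attached 3, suspended 1 or suspended 3 was left out, 2 under the signal filter, and 4 after centring on the median of tested genes. Of 10 germline genes listed as targets of silencing by this complex 0 were called by limma in either direction (1 higher and 1 lower at unadjusted p). After centring on the median of tested genes 1 was lower, and the differences as deposited ran from −0.13 to 0.12. TDRKH was not silent in these cells, with an attached mean of 7.05. The others had low attached means, from 3.34 (SYCP3) to 5.39 (DAZL), most of them below 5.28, the 25th percentile of gene means. Whether they are silenced was not tested.

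Of 8 genes responding to MLX and its glucose-sensing partners, TXNIP, an arrestin-like inhibitor of glucose uptake, was lower (12.5%, against 10.2% of all genes) and 0 were higher by limma. At unadjusted p under 0.05, a looser threshold to which the 10.2% does not apply, 3 were lower and 0 higher. By adjusted p 2 were called lower without attached replicate 1 or 4 and after centring on the median of tested genes. TXNIP read 7.27, 7.22, 7.16 and 7.13 attached and 6.64, 6.99, 6.91 and 6.85 suspended, a difference of −0.35 (SE 0.072, limma adjusted p = 0.00517). Its close relative ARRDC4 differed by −0.10 and did not pass (adjusted p = 0.369).

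The genes whose signal over the 8 arrays was most like that of MYC were SLC19A1, the reduced folate carrier (root mean square distance 0.019 log2 units), the desaturase SCD5 (0.028) and the tRNA methyltransferase TRMT1 (0.034), among 18416 other genes. Each profile was first centred on its own mean, and that of MYC had a root mean square of 0.21. The differences of these 3 genes were −0.40, −0.36 and −0.45. For MXD1, looked up after the values were seen, the nearest were ARRDC3 (0.039), DPY19L1 (0.042) and RNF13 (0.043), for MNT ARPC1B (0.025), and for MXI1 no gene came closer than S100A5 at 0.065. These distances describe 8 arrays in 2 groups and carry no test.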

How the data were processed

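Total RNA from 8 cultures was labelled with biotin and measured on gene-level arrays. The deposited values are log2 signals per probe set, a scale inferred from their size. The submitters' processing notes name Partek; its version, the background correction and the normalization are not stated in the sources at hand. GEO's platform annotation gave 1 gene symbol to 19460 of 33297 probe sets, and the brightest stood for each of 18417 genes. Suspended and attached arrays were compared by limma 3.58.1 under R 4.3.3 (a two-sided moderated test from lmFit and eBayes, without covariates), adjusting over all 18417 genes by Benjamini-Hochberg at a threshold of 0.05. SE and 95% intervals are limma's. Counts at unadjusted p use p under 0.05, a looser threshold than that of the shares of all genes, which do not apply to them. Differences are suspended minus attached, and SD is over 4 arrays. On simulated arrays of 18417 genes with known changes the fit called 54 of 100 genes changed 1.25-fold and 99 of 100 changed 2-fold. Far fewer genes changed there than the 3787 called in these data. The adjustment was therefore stricter in the simulation, and its rates do not give the share of changes missed here. No detection call was used.

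The members and gene lists were chosen with earlier results of these data known. Named genes were all members, the 3 called genes of smallest adjusted p per list, every called gene where 5 or fewer were called in a direction, and the 3 profiles nearest to MYC. Other genes were named after their values were seen. Alternatives were a replicate block, quantile normalization, centring on array medians or on the median of tested genes, a filter at the 25th percentile of signal, averaged or separate probe sets, a trended prior, an exact permutation test and leaving out each array. Python 3.11.15 with pandas 2.3.3, scipy 1.17.1 and matplotlib 3.10.9 made the remaining values and the plots.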

Additional observations from a re-analysis of the deposited data

Results flagged for a closer look

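Among 78 groups of 4 arrays, covering 39 genes of the network and of the lists, 5 held an array whose gap to its nearest neighbour, over the group's range, exceeded Dixon's 95% critical value. Chance gives about 1 in 20. For MXD1 attached replicate 3 was low at 6.40, against 6.52 to 6.54 on the others. For MLX attached replicate 1 was low at 8.49, against 8.56 to 8.57. The same array was low for RING1 at 7.11, against 7.22 to 7.23, and for the cadherin gene CDH2 at 8.893, against 8.95 to 8.96. For CD14 attached replicate 2 was high at 5.57, against 5.46 to 5.48.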

How the results depend on the processing

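MYC and MXD1 kept their calls under all 16 alternatives fitted by limma, with MYC between −0.44 and −0.35 and MXD1 between 0.30 and 0.37. With 1 array left out in turn, MXI1 ranged from 0.28 to 0.43, MNT from 0.16 to 0.19 and MXD4 from 0.15 to 0.24; MXI1 lost its call in 4 of these refits, MNT lost it without attached replicate 4, and MXD4 gained one without suspended replicate 2. The number of network genes called ranged from 2 (without attached replicate 4) to 5 (without suspended replicate 2). Centring on the median of tested genes, added after seeing the data, brought MNT to 0.13 and below the threshold; the cause was not tested, and this centring moved the median of all genes by −0.05. MAX, MLX, MGA, MXD3 and MYCN were called under none of these 16. The exact permutation test gives an unadjusted p and so makes no call; its p was 0.0286, the smallest possible, for MYC, MXD1, MXI1 and MNT. The growth genes called lower numbered 18 (quantile normalization) to 25 (centring on tested genes), and the repressed genes called higher 6 to 8. Attached and suspended arrays of the same number did not deviate together (r = 0.04, −0.20, −0.02 and −0.17), so the numbers were not taken as pairs; with the replicate block 1505 genes were called higher and 1517 lower, and the same 4 network genes were called (MXI1 adjusted p = 0.0426, MNT 0.0488). Arrays give no depth, and with 4 per group the 95% intervals, not the missed threshold, bound the differences of MXD3, MXD4 and MYCN.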
